A study of Mus musculus with 6 samples.

Results

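The mRNAs of 10 lysosomal cathepsins (*Ctsa*, *Ctsb*, *Ctsc*, *Ctsd*, *Ctsf*, *Ctsh*, *Ctsk*, *Ctsl*, *Ctss* and *Ctsz*) were examined in F4/80-positive liver cells of mice fed a high-fat diet (HFD). The members were taken by gene symbol from the 49315 genes in the count tables, and all 10 passed the filter on low counts, which kept 16134 genes. These cells, which include the Kupffer cells (macrophages that reside in the liver), were isolated with antibody-coated magnetic beads after collagenase perfusion, and 1 polyA RNA library was sequenced per mouse. The 3 WT mice were *Lpcat3* fl/fl with LysM +/+, and the 3 Lpcat3KOMac mice were *Lpcat3* fl/fl with LysM Cre/+. Both groups thus carried the floxed *Lpcat3* alleles, were on the C57BL/6N background, began the diet at 8 to 12 weeks of age and received it (60% fat) for 16 weeks. LysM Cre is inserted into 1 copy of *Lyz2*, the lysozyme gene of myeloid cells, and only the mutant group carries it, so the loss of *Lpcat3* and the presence of Cre with 1 interrupted *Lyz2* copy cannot be told apart.

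Cathepsins are proteases that are made as inactive precursors, carried to the lysosome largely through mannose 6-phosphate tags, and activated there at low pH. Macrophages use them to degrade what they engulf and to trim the invariant chain and antigens for presentation on MHC class II. Most are cysteine proteases of the papain type, whereas cathepsin D is an aspartic protease and cathepsin A a serine carboxypeptidase. *Lpcat3* encodes an enzyme that loads polyunsaturated fatty acids into phospholipids, and the comparison asks how the transcripts of these liver macrophages differ when the gene is deleted in myeloid cells.

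The stretch of coding sequence around the catalytic residue is what separates the 3 classes of protease among these genes, and it is shown for 9 of the members. Each stretch has 27 bases and was read 5′ to 3′ from the principal GENCODE M21 transcript, with the codon of the catalytic residue in capitals (cysteine in 7 genes, the first of the catalytic aspartates in *Ctsd* and serine in *Ctsa*). Positions are those of the GRCm38 build, and the *Ctsb* stretch runs across an exon junction.
Ctsb (cysteine, exon 4 of 10, chr14:63135705-63136415, plus strand): tcctgcggctctTGTtgggcatttggg
Ctsl (cysteine, exon 5 of 8, chr13:64367063-64367089, minus strand): cagtgcgggtctTGTtgggcgtttagc
Ctss (cysteine, exon 5 of 8, chr3:95545336-95545362, plus strand): tcttgtggtgccTGCtgggctttcagt
Ctsk (cysteine, exon 5 of 8, chr3:95502585-95502611, plus strand): cagtgtggttccTGTtgggctttcagc
Ctsh (cysteine, exon 6 of 12, chr9:90064510-90064536, plus strand): gcctgtggcagcTGCtggactttctct
Ctsz (cysteine, exon 2 of 6, chr2:174438184-174438210, minus strand): tactgtggttccTGCtgggcccacggc
Ctsc (cysteine, exon 6 of 7, chr7:88308015-88308041, plus strand): tcttgtggaagcTGCtactcatttgcc
Ctsd (aspartic, exon 3 of 9, chr7:142383467-142383493, minus strand): acagtcgtctttGATactggctcctct
Ctsa (serine, exon 7 of 16, chr2:164835231-164835257, plus strand): ctgacaggagagAGCtatgctggcatc

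The cysteine codon was followed by the tryptophan codon tgg in every cysteine cathepsin shown except *Ctsc*, where the tyrosine codon tac stood in its place. Over whole principal transcripts, the longest identical run between any 2 members was 18 bases (*Ctsh* with *Ctsf*) among the 45 pairs compared, so these transcripts shared no longer stretch. *Ctsk* and *Ctss* are neighbours on chromosome 3, at 95499256 to 95509362 and 95526786 to 95556403.

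Total counts per library lay between 44954224 and 71392812, and every member except *Ctsk* had at least 3782 counts in each library. The labels were checked on the targeted genes. *Lpcat3* had 85.0, 66.2 and 61.2 TMM CPM (counts scaled to the size of the library, with edgeR's TMM factor) in WT mice 1 to 3, and 19.5, 33.3 and 19.4 TMM CPM in Lpcat3KOMac mice 1 to 3, so that the groups did not overlap and transcript remained in the mutants. *Lyz2* also did not overlap, with 4695 to 7659 TMM CPM in WT and 1533 to 2980 TMM CPM in Lpcat3KOMac. Markers of Kupffer cells were present in all libraries, with 8 markers summing to 32007 to 44274 TMM CPM in WT and 25355 to 34573 TMM CPM in Lpcat3KOMac. Transcripts of hepatocytes were also present and differed widely between libraries (6 transcripts, 21631, 1935 and 1851 TMM CPM in WT, and 4922, 13604 and 4755 TMM CPM in Lpcat3KOMac), with WT mouse 1 and Lpcat3KOMac mouse 2 standing above the rest.

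Cathepsin transcripts were abundant. The 10 genes together took between 2.08% and 2.63% of all counts in a library. Scaled to the exonic bases of each gene, so that genes can be compared, *Ctsb* had the highest level, with 2544 ± 209 TMM CPM per kilobase (mean ± SD over all 6 mice), and ranked 17 among the 16134 genes tested. Cathepsin B cleaves proteins internally and also removes dipeptides from their ends. *Ctss*, which encodes the cathepsin S of antigen-presenting cells, followed with 2003 ± 207 TMM CPM per kilobase (rank 22). *Ctsd* had 1258 ± 142 TMM CPM per kilobase (rank 31). These 3 genes differed from each other beyond the spread over mice, since *Ctsb* was above *Ctss*, and *Ctss* above *Ctsd*, in 6 of 6 libraries. How reads in bases shared with other genes were counted is not given. The levels of *Ctsb* and *Ctsd*, and this order, are thus less certain than the spread shows.

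The next 5 genes lay between 588 and 217 TMM CPM per kilobase. *Ctsz*, a carboxypeptidase, was at 588 ± 66.9 TMM CPM per kilobase, and *Ctsc*, a dipeptidyl peptidase, at 410 ± 45.5 TMM CPM per kilobase. *Ctsl* was at 274 ± 24.1 TMM CPM per kilobase, just above *Ctsa* at 231 ± 25.3 and *Ctsh* at 217 ± 17.5 TMM CPM per kilobase. *Ctsa* was above *Ctsh* in only 4 of 6 libraries, and these neighbours were not separated by the spread over mice, whereas every other gene was above the next in 6 of 6. *Ctsf* came far below, at 42.9 ± 4.73 TMM CPM per kilobase (rank 1228), and *Ctsk*, the collagen-degrading protease best known from osteoclasts, was at 1.21 ± 0.573 TMM CPM per kilobase, below most genes tested (rank 11093). The middle of this order depended on the length used. Scaled to the principal transcript alone, *Ctsc* came after *Ctsd* with 956 TMM CPM per kilobase, ahead of *Ctsh* with 602 and *Ctsz* with 588, while the first 3 and the last 2 places were the same. On that scale *Ctsa* was at 299 and *Ctsl* at 274 TMM CPM per kilobase, and *Ctsh* was above *Ctsz*, and *Ctsa* above *Ctsl*, in 4 of 6 libraries. This second scaling was chosen after seeing the data.

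**Figure D1:**
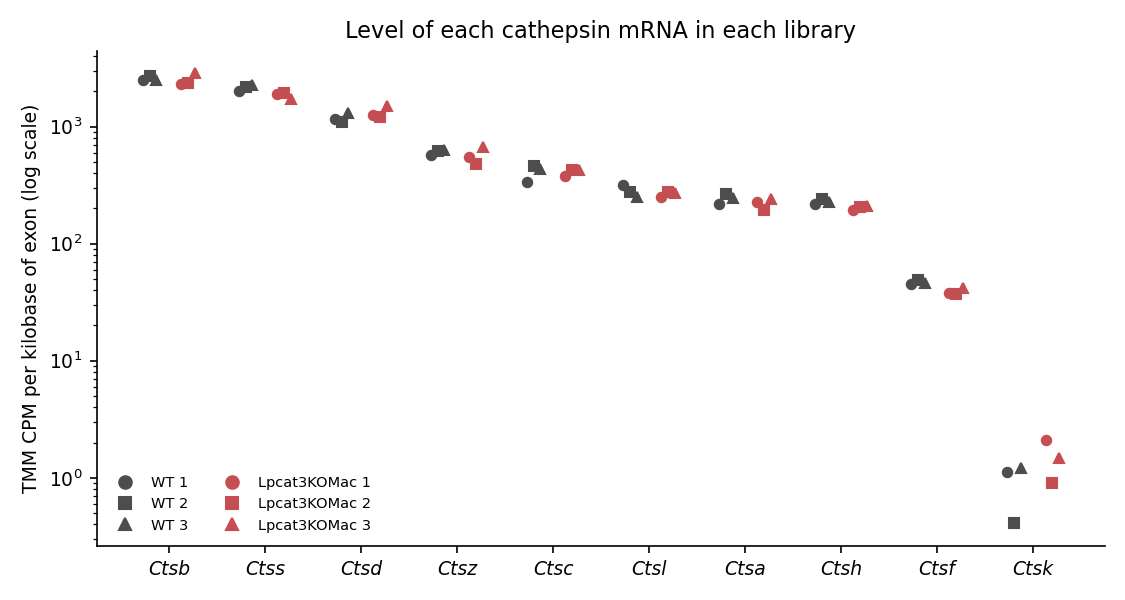
Level of each cathepsin mRNA in each library, in TMM CPM per kilobase of exon on a log axis, with 3 WT mice (grey) and 3 Lpcat3KOMac mice (red) and 1 symbol per replicate number. The genotypes lie close together for 9 genes, from *Ctsb* at 2544 to *Ctsf* at 42.9 TMM CPM per kilobase on average, and the points of *Ctsk*, at 1.21, are spread more widely.

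Between genotypes, none of the 10 cathepsins was called as changed. Tested with edgeR (quasi-likelihood F test, Benjamini-Hochberg over 16134 genes), each of them had an adjusted p of 1.00, and 0 of all genes were called (0.0%). The targeted genes were not called either, namely *Lpcat3* (log2 fold change -1.56, edgeR unadjusted p = 0.00119) and *Lyz2* (-1.42, edgeR unadjusted p = 0.00351). A gene that was not called in this fit is therefore not shown to be unchanged. DESeq2 called 12 genes and limma-voom 0, and none of the 12 was a cathepsin. The fitted log2 fold change (Lpcat3KOMac against WT) was below 0 for 8 cathepsins and above 0 for *Ctsd* and *Ctsk*, with a median of -0.09 beside -0.04 over all genes tested. At an unadjusted p under 0.05, edgeR picked out 1 cathepsin (*Ctsf*, lower) and 426 of all genes (2.64%), 1.57% of all genes being lower in Lpcat3KOMac. In TMM CPM, the values of the genotypes did not overlap for 3 cathepsins, *Ctsf*, *Ctss* and *Ctsh*, all lower in Lpcat3KOMac. In the other direction there were 0 such cathepsins. Over all genes, 5.2% were separated in this way and lower, and 2.29% higher. With total counts alone in place of TMM scaling, the values of these 3 cathepsins overlapped. In such a bulk preparation, fewer cells of a type and less RNA per cell cannot be told apart. The cathepsins were also measured more precisely than most genes. The median SE of the log2 fold change was 0.12 for the members and 0.23 over all genes. The median coefficient of variation between WT mice was 7.74% for the members and 19.8% over all genes. Between Lpcat3KOMac mice it was 9.33% for the members and 14.0% over all genes. The members were not set beside genes of like abundance. For every cathepsin except *Ctsk*, the 95% interval of the difference lay within a log2 fold change of -0.47 to 0.46.

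**Figure D2:**
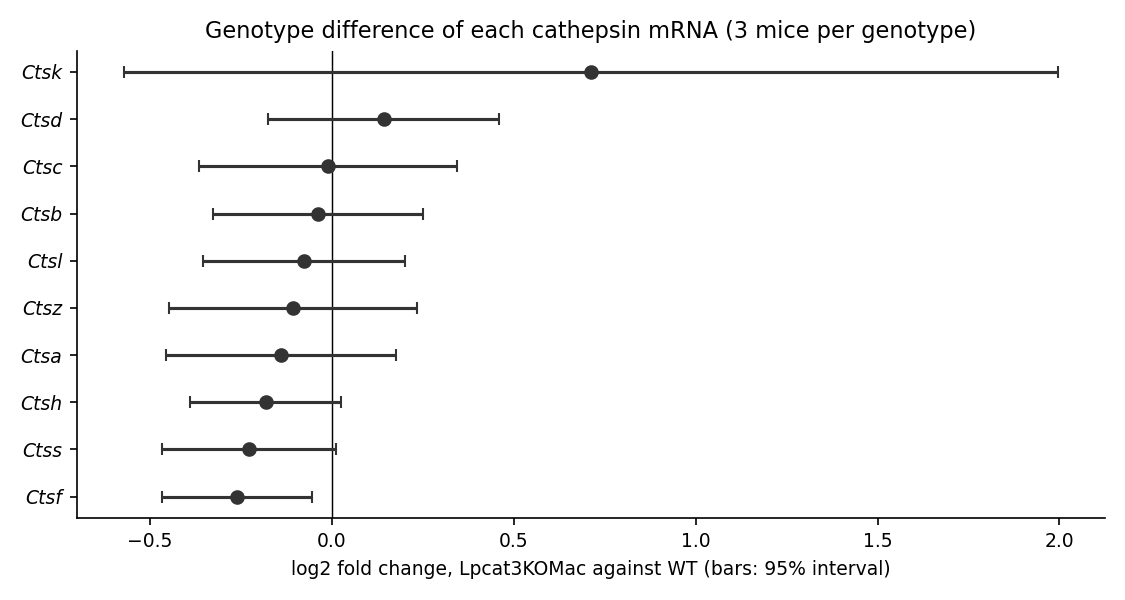
Log2 fold change of each cathepsin mRNA, Lpcat3KOMac against WT (3 mice each), from edgeR, with bars for the 95% interval and a line at 0. The interval of *Ctsf* (-0.47 to -0.05) is the only one below 0, those of *Ctss* and *Ctsh* end just above it, and that of *Ctsk* reaches from -0.57 to 2.00.

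*Ctsf* and *Ctss* encode cysteine proteases that can cut the invariant chain, the chaperone that occupies MHC class II molecules until peptide is loaded. *Ctsf* (ENSMUSG00000083282, chromosome 19, 4855129 to 4860912) had 89.1, 97.3 and 90.4 TMM CPM in the WT mice, in the order of their numbers, and 75.5, 72.9 and 82.7 TMM CPM in the mutants. All mutant values were below the lowest WT value, and the mutant mean (77.0 ± 5.07 TMM CPM, SD, n = 3) was 83.5% of the WT mean (92.2 ± 4.40 TMM CPM). The log2 fold change was -0.26 with an SE of 0.08 (edgeR, unadjusted p = 0.0219, adjusted p = 1.00), and the two-sided exact permutation test gave 0.1, the smallest p that 3 mice against 3 allow. The unadjusted edgeR p was 0.0707 without WT mouse 2, 0.104 without Lpcat3KOMac mouse 1 and 0.0889 without Lpcat3KOMac mouse 2, beside an adjusted p that was above 0.05 in every fit. *Ctss* (ENSMUSG00000038642) was at 2734, 2969 and 3101 TMM CPM in WT and at 2570.4, 2628 and 2322 TMM CPM in Lpcat3KOMac. These groups did not overlap either, with Lpcat3KOMac mouse 3 lowest, and the mutant mean (2507 ± 163 TMM CPM) was 85.4% of the WT mean (2935 ± 186 TMM CPM). Its log2 fold change was -0.23 with an SE of 0.10 (edgeR, unadjusted p = 0.0589, adjusted p = 1.00; exact permutation p = 0.1), and it was -0.15 without Lpcat3KOMac mouse 3.

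*Ctsh* (ENSMUSG00000032359, chromosome 9, 90054152 to 90076089), whose enzyme trims amino acids from the N-terminus of proteins, was at 988, 1089 and 1028 TMM CPM in WT and at 866, 929 and 944 TMM CPM in Lpcat3KOMac. The highest mutant value was below the lowest WT value, by less than the range within either group, and the mutant mean (913 ± 41.0 TMM CPM) was 88.2% of the WT mean (1035 ± 50.8 TMM CPM). The log2 fold change was -0.18 with an SE of 0.08 (edgeR, unadjusted p = 0.0762, adjusted p = 1.00; exact permutation p = 0.1), and it was -0.11 without Lpcat3KOMac mouse 1. Without both libraries that held the most hepatocyte transcript (WT mouse 1 and Lpcat3KOMac mouse 2), the log2 fold changes were -0.25 for *Ctsf*, -0.31 for *Ctss* and -0.23 for *Ctsh*. With total counts alone in place of TMM scaling, which raised the median of all genes by 0.10 on the log2 scale, they were -0.17, -0.14 and -0.09. WT mouse 1 was then below at least 1 mutant for each of these genes, so their groups overlapped.

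**Figure D3:**
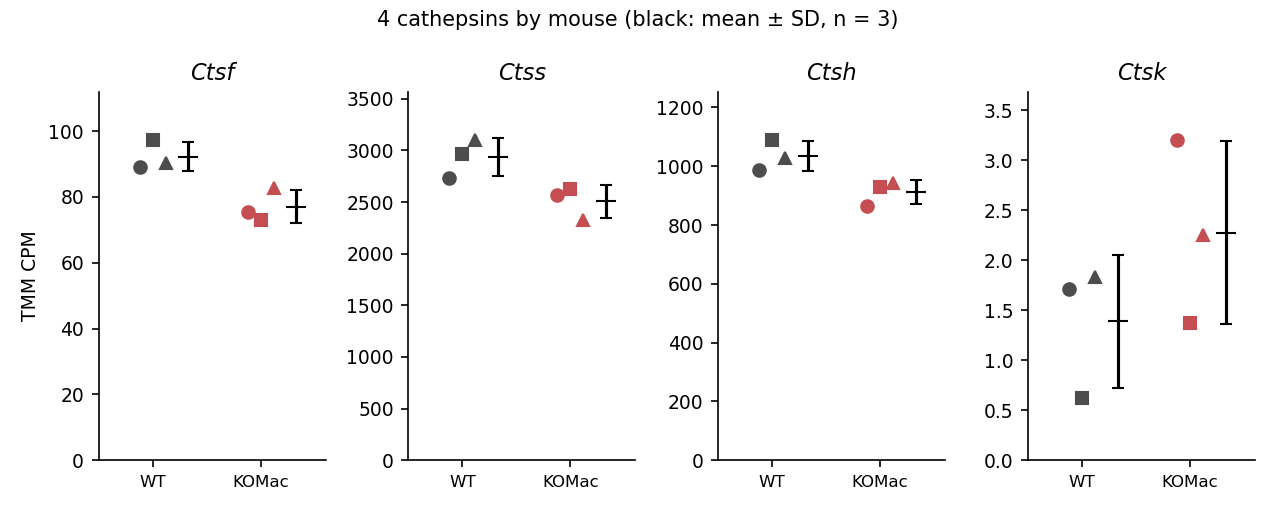
TMM CPM of *Ctsf*, *Ctss*, *Ctsh* and *Ctsk* in each of 3 WT (grey) and 3 Lpcat3KOMac (red) mice, with the mean ± SD of each group in black and axes that start at 0. The mutant points of *Ctsf*, *Ctss* and *Ctsh* lie below all WT points, with means at 83.5%, 85.4% and 88.2% of WT, while those of *Ctsk* overlap.

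The other broad cysteine endopeptidases, *Ctsb* and *Ctsl*, did not separate the genotypes. *Ctsb* (ENSMUSG00000021939, chromosome 14, 63122462 to 63145919) was at 11868, 12902 and 11882 TMM CPM in WT and at 11057, 11088 and 13541 TMM CPM in Lpcat3KOMac. The highest value of all belonged to Lpcat3KOMac mouse 3, while the other mutants were below every WT mouse. The means of 12217 ± 593 TMM CPM in WT and 11895 ± 1425 TMM CPM in Lpcat3KOMac differed by less than the spread within either group, with a log2 fold change of -0.04 and a 95% interval from -0.33 to 0.25. *Ctsl* (ENSMUSG00000021477, chromosome 13, 64363214 to 64370306) was at 622, 549.7 and 492 TMM CPM in WT and at 494, 549 and 535 TMM CPM in Lpcat3KOMac. All mutant values lay inside the WT range, and the log2 fold change was -0.08 (95% interval -0.35 to 0.20).

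*Ctsk* (ENSMUSG00000028111) differed most in fold and was known least well. It rested on 111, 31 and 84 counts in WT and on 186, 71 and 106 counts in Lpcat3KOMac, which gave 1.71, 0.619 and 1.84 TMM CPM in WT and 3.20, 1.37 and 2.25 TMM CPM in Lpcat3KOMac. WT mouse 2 was lowest and Lpcat3KOMac mouse 1 highest, 5.18-fold apart, and the groups overlapped. The log2 fold change was 0.71 with an SE of 0.52 (95% interval -0.57 to 2.00; edgeR, unadjusted p = 0.222, adjusted p = 1.00; exact permutation p = 0.4), and it was 0.36 without WT mouse 2, 0.42 without Lpcat3KOMac mouse 1 and 1.16 without both WT mouse 1 and Lpcat3KOMac mouse 2. The highest and lowest libraries of each other cathepsin were between 1.22-fold and 1.39-fold apart.

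The exopeptidases *Ctsc* and *Ctsz* take short pieces from the ends of proteins, and cathepsin C also activates the serine proteases of granulocytes and cytotoxic lymphocytes. *Ctsc* (ENSMUSG00000030560, chromosome 7, 88278085 to 88310888) was at 1959, 2674 and 2544 TMM CPM in WT and at 2178, 2477 and 2471 TMM CPM in Lpcat3KOMac. The mutant values lay inside the WT range, and the means of 2393 ± 381 and 2375 ± 171 TMM CPM gave a log2 fold change of -0.01 (95% interval -0.37 to 0.35). *Ctsz* (ENSMUSG00000016256, chromosome 2, 174427493 to 174439039) was at 827, 892 and 915 TMM CPM in WT and at 795, 692 and 959 TMM CPM in Lpcat3KOMac. The mutants held both the lowest and the highest value, and the log2 fold change was -0.11 (95% interval -0.45 to 0.23).

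The members that are not cysteine proteases stood on either side of 0. *Ctsd* (ENSMUSG00000007891, chromosome 7, 142375911 to 142388038), the main aspartic protease of the lysosome, was at 2739, 2599 and 3098 TMM CPM in WT and at 2951, 2818 and 3545 TMM CPM in Lpcat3KOMac. Only Lpcat3KOMac mouse 3 was above all WT mice, and the means of 2812 ± 257 TMM CPM in WT and 3105 ± 387 TMM CPM in Lpcat3KOMac gave a log2 fold change of 0.14 (95% interval -0.17 to 0.46; exact permutation p = 0.4), which was 0.07 without that mouse and 0.09 without WT mouse 2, and 0.22 to 0.23 without WT mouse 3, Lpcat3KOMac mouse 1 or Lpcat3KOMac mouse 2. *Ctsa* (ENSMUSG00000017760, chromosome 2, 164832873 to 164841032), which also shields neuraminidase 1 and beta-galactosidase from degradation in a shared complex, was at 1021, 1249 and 1156 TMM CPM in WT and at 1061, 908 and 1141 TMM CPM in Lpcat3KOMac. The groups overlapped, with a log2 fold change of -0.14 (95% interval -0.45 to 0.18; exact permutation p = 0.4). It was -0.03 without Lpcat3KOMac mouse 2, -0.07 without WT mouse 2 and -0.21 without WT mouse 1.

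Some of these counts can include reads of other genes or lack reads in shared bases. The settings of the counting program on strand and on reads that match several genes are not given in the sources used here. *Ctsa* shares 495 exonic bases, 10.5% of its own, with *Pltp* on the opposite strand, and *Pltp*, the phospholipid transfer protein, had 70655 to 122886 counts per library, more than *Ctsa*. The level of *Ctsa* is therefore uncertain. *Pltp* itself was at 2109 ± 340 TMM CPM in WT and 1609 ± 366 TMM CPM in Lpcat3KOMac. *Ctsa* shares a further 324 bases with *Neurl2*, and *Ctsb* shares 767 bases, 16.2% of its own, with *Fdft1*. The highest counts of these partners were 746 and 1774, which does not show that reads in shared bases were kept for the cathepsin. *Ctsd* shares 808 bases, 34.4% of its own, with *Gm49369* on the same strand, which had 2 to 8 counts. The levels of *Ctsb* and *Ctsd* are therefore uncertain too, as reads in shared bases may not have been counted. *Ctsz* shares 10 bases with *Nelfcd*. *Ctsc* and *Ctss* overlap other genes only outside shared exons, and *Ctsf*, *Ctsh*, *Ctsk* and *Ctsl* overlap none.

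The summed level of the cathepsins did not separate the genotypes. It was 22849, 25022 and 24308 TMM CPM in WT and 22050.3, 22162 and 25543.5 TMM CPM in Lpcat3KOMac. The mutants held both extremes, and their mean (23252 ± 1985 TMM CPM) was 96.6% of the WT mean (24060 ± 1107 TMM CPM), a difference smaller than the SD of either group. The sum of the mutants was above that of WT by 421 TMM CPM without Lpcat3KOMac mouse 1, by 22.2 TMM CPM without Lpcat3KOMac mouse 2, and by 698 CPM with total counts alone, so the direction of this difference changed with the library left out and with the scaling.

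**Figure D4:**
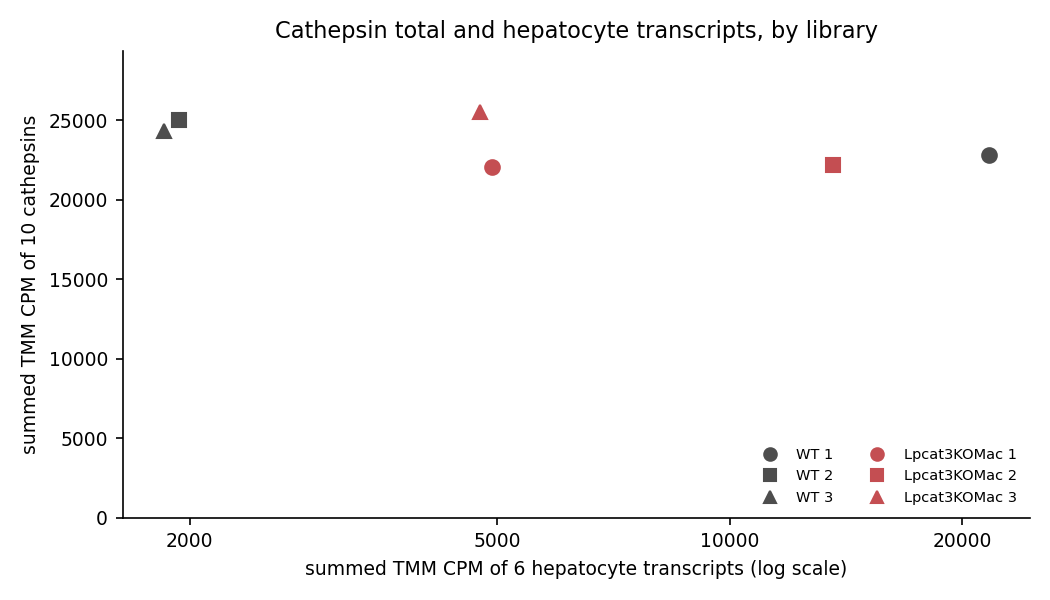
Summed TMM CPM of the 10 cathepsins (y axis, from 0) against summed TMM CPM of 6 hepatocyte transcripts (x axis, log scale) in 3 WT (grey) and 3 Lpcat3KOMac (red) libraries. Cathepsin totals stay between 22050.3 and 25543.5 TMM CPM, while the hepatocyte transcripts range from 1851 to 21631 TMM CPM.

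Ratios of members within a library do not depend on the scaling. Of 5 ratios computed, all chosen after the values were seen and given without a test, 2 did not overlap between genotypes. Both have as numerator a member whose level in TMM CPM already did not overlap. The ratio of *Ctsf* to *Ctsb* counts was 0.00750, 0.00754 and 0.00761 in WT and 0.00682, 0.00658 and 0.00611 in Lpcat3KOMac, lower in every mutant. The ratio of *Ctss* to *Ctsd* was 0.998, 1.14 and 1.00 in WT and 0.871, 0.932 and 0.655 in Lpcat3KOMac, again without overlap. The ratios to *Ctsb* of *Ctss* (0.230, 0.230 and 0.261 in WT, and 0.232, 0.237 and 0.171 in Lpcat3KOMac), of *Ctsh* (0.0833 to 0.0866 and 0.0697 to 0.0838) and of *Ctsd* (0.201 to 0.261 and 0.254 to 0.267) overlapped. Lpcat3KOMac mouse 3 was lowest in the ratios with *Ctsf*, *Ctss* and *Ctsh* as numerator. It had the highest *Ctsb*, *Ctsd* and *Ctsz* and the lowest *Ctss* of all mice.

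Transcripts of other cell types were present in the preparation at different levels. The 9 markers of monocytes and recruited macrophages, cells that also make cathepsins, summed to 261, 155 and 509 TMM CPM in WT and to 540.0, 494 and 485 TMM CPM in Lpcat3KOMac, so that the ranges overlapped through WT mouse 3. Neutrophil markers (6 listed) summed to 1.96 to 2.95 TMM CPM in WT and 4.18 to 5.63 TMM CPM in Lpcat3KOMac, without overlap but at very low level, and their defining marker *Ly6g* had at most 3 counts in a library. Markers of sinusoidal endothelial cells (7) summed to 889 to 980.1 TMM CPM in WT and 961 to 1208 TMM CPM in Lpcat3KOMac. Those of stellate cells (6) summed to 57.6 to 170.1 TMM CPM in WT and 123 to 217 TMM CPM in Lpcat3KOMac. Lymphocyte (6), dendritic cell (5) and cholangiocyte (3) markers summed to at most 7.01, 11.5 and 0.694 TMM CPM in any library. The cholangiocyte sums were higher in every mutant (0.672 to 0.694 TMM CPM) than in any WT mouse (0.280 to 0.590 TMM CPM). They rest on very few reads, with at most 11 counts of *Krt19*, 23 of *Krt7* and 15 of *Epcam* in a library. No marker was at 0 in all libraries. Of the 8 Kupffer cell markers, *Clec4f* (log2 fold change -0.44) and *C1qa* (-0.31) had an unadjusted edgeR p under 0.05, and both were lower in Lpcat3KOMac. Of the markers of other cell types, 5 had such a p, and all were higher in Lpcat3KOMac. They were *Kdr* (log2 fold change 0.79) and *Gpr182* (0.73) of 7 endothelial markers, *S100a8* (0.99) of 3 neutrophil markers tested, and *Chil3* (1.70) and *Spp1* (1.81) of 9 markers of monocytes and recruited macrophages. The other tested markers of these lists went both ways, with *Pecam1* and *Itgam* lower (-0.24 each), *Stab2* at 0.02 and others higher. No tested marker of hepatocytes (6), stellate cells (6), lymphocytes (6), dendritic cells (5) or cholangiocytes (2) had such a p. Over all genes, 2.64% had such a p. The larger part of these genes (1.57% of all genes) was lower in Lpcat3KOMac and the rest were higher. None of these markers was called after adjustment. The part of any of these cell types in the cathepsin values was not tested.

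The mRNAs of proteins that sort, activate and restrain cathepsins were compared in lists of genes, in each of which edgeR called 0 genes. Cystatin C, encoded by *Cst3*, is a secreted inhibitor of cysteine cathepsins. It was at 869.6, 953 and 817 TMM CPM in WT and at 693, 618 and 761 TMM CPM in Lpcat3KOMac, all mutants being below all WT mice. Its log2 fold change was -0.35 with an SE of 0.11 (edgeR, unadjusted p = 0.0229, adjusted p = 1.00; exact permutation p = 0.1). It was the only gene with an unadjusted p under 0.05 among the 5 inhibitors tested of 10 listed, of which 4 were lower and 1 higher (*Cstb*, log2 fold change 0.00), with a median log2 fold change of -0.11. *Cst6* and *Stfa1*, *Stfa2* and *Stfa3* had 0 counts in every library, and *Cst7* did not pass the filter.

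Of 10 other lysosomal proteases, 9 were tested, and 7 were lower and 2 higher in Lpcat3KOMac (median log2 fold change -0.08, 0 with an unadjusted p under 0.05). The highest per kilobase of exon was *Lgmn*, which encodes legumain, the asparagine-specific protease that processes several cathepsins, at 3179.7, 3693 and 3578 TMM CPM in WT and 3047, 2943 and 3685 TMM CPM in Lpcat3KOMac. The genes of mannose 6-phosphate tagging and sorting (11 of 11 tested) were divided between 5 higher and 6 lower, with a median of -0.02. *M6pr*, a mannose 6-phosphate receptor, was at 351 to 376 TMM CPM in WT and 345 to 368 TMM CPM in Lpcat3KOMac. The 16 genes of the proton pump that acidifies the lysosome were divided between 6 higher and 10 lower, with a median of -0.05. The highest of them per kilobase of exon, *Atp6v1g1*, differed by a log2 fold change of -0.07 (SE 0.09). Only *Atp6v0d2* separated the genotypes in that list, at 14.4, 4.51 and 23.7 TMM CPM in WT and 37.9, 27.5 and 25.4 TMM CPM in Lpcat3KOMac (log2 fold change 1.09, SE 0.59; edgeR, unadjusted p = 0.115, adjusted p = 1.00). It was named after its values were seen.

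Partners and substrates of the cathepsins were tested for 7 of 9 listed genes, with 3 higher, 4 lower and a median log2 fold change of -0.13. *Cd74*, the invariant chain itself, was at 3665, 2785 and 6630.1 TMM CPM in WT and at 3750.1, 4835 and 1817 TMM CPM in Lpcat3KOMac. It varied far more between mice than *Ctss* or *Ctsf*, and its log2 fold change was -0.33 with an SE of 0.47. *Neu1* and *Glb1*, the partners of cathepsin A, had log2 fold changes of -0.14 and -0.13 (SE 0.11 each).

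**Figure D5:**
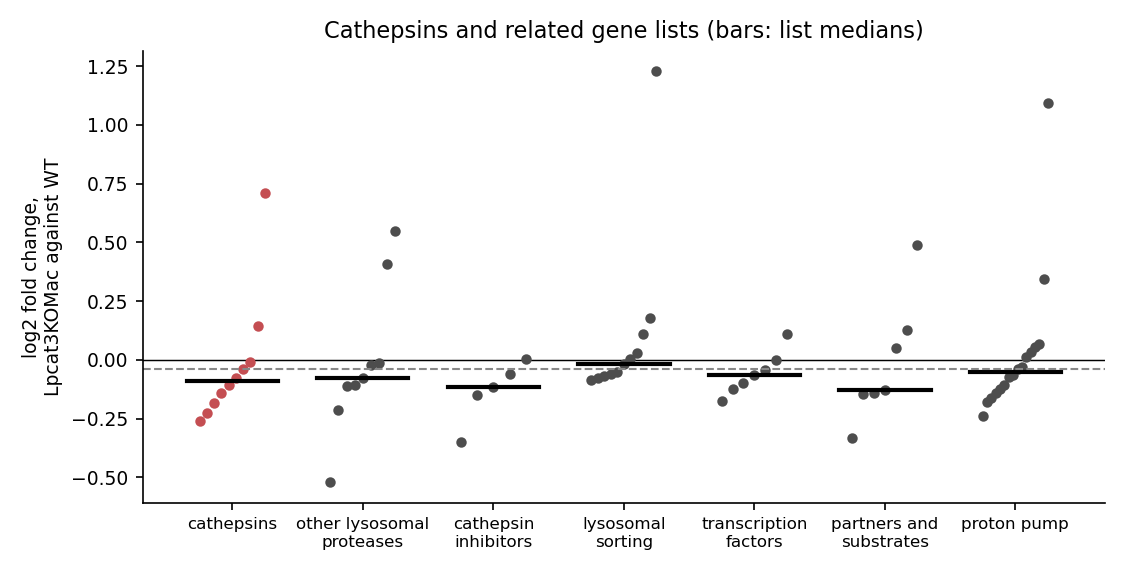
Log2 fold change (Lpcat3KOMac against WT, edgeR) of each tested gene in the cathepsin list (red) and in 6 related lists (grey), with a black bar at each list's median and a dashed line at the median of all genes (-0.04). The medians lie between -0.13 and -0.02. The points farthest from 0 are *Sort1* (1.23, SE 0.76), *Atp6v0d2* (1.09, SE 0.59) and *Ctsk* (0.71, SE 0.52), followed by *Napsa* (0.55) and *Ctsw* (-0.52).

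Many lysosomal genes carry an E-box, CACGTG, near their start, which factors of the TFEB and USF families bind. The 7 transcription factors listed were members of these families and *Zkscan3*, which is in neither. None of them had an unadjusted p under 0.05 in edgeR, and 1 was higher and 6 were lower (median log2 fold change -0.07). *Tfeb* was at 0.11 (SE 0.12) and *Tfe3* at -0.12 (SE 0.18) on the log2 fold change scale. *Usf1*, the most abundant of the list per kilobase, was at 79.5, 99.0 and 107.6 TMM CPM in WT and at 76.4, 92.0 and 85.3 TMM CPM in Lpcat3KOMac. *Usf2* separated the genotypes by a small margin, with a log2 fold change of -0.10 (SE 0.07). The E-box was sought in the 250 bases before the RefSeq start sites of the members (GRCm38.p6), a search chosen after the data were seen. Promoters were matched for 8 of the 10 genes (9 promoters, *Ctsb* and *Ctsh* having none in the table), and CACGTG, which reads the same on both strands, stood in the windows of 4 of them. It stands in 1978 of 32851 promoters of the same length (6.02%). The matches are shown with CACGTG in capitals, on the strand of the gene, because they show which members hold the motif. The stretches of *Ctsl* and *Ctsa* and the one nearer the start of *Ctsd* overlap an exon of these genes in GENCODE M21, so they lie before the RefSeq start but inside the GENCODE gene.
Ctsf (79 bases before the start, chr19:4855074-4855103, plus strand): caccccgtggtcCACGTGcctcgcgtaaat
Ctsd (245 bases before the start, chr7:142388055-142388077, minus strand): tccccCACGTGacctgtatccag
Ctsd (98 bases before the start, chr7:142387908-142387937, minus strand): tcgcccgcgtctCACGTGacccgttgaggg
Ctsl (236 bases before the start, chr13:64370739-64370768, minus strand): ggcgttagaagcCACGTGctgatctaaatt
Ctsa (12 bases before the downstream one of its 2 starts, chr2:164833749-164833772, plus strand): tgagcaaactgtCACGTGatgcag

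Neither the members with the motif nor those without it all went in 1 direction between genotypes. Among those that held it, *Ctsf* was lower without overlap in TMM CPM. *Ctsd* was at 0.14 and *Ctsl* and *Ctsa* were at -0.08 and -0.14 on the log2 fold change scale. *Ctss*, the other member with a matched promoter whose genotypes did not overlap in TMM CPM, held no CACGTG in its window. Its log2 fold change was -0.23. The other members searched without a match were *Ctsc* (-0.01), *Ctsz* (-0.11) and *Ctsk* (0.71), and their genotypes overlapped. *Ctsb* and *Ctsh* were not searched.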

How the data were processed

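Per the labels and the study's methods, RNA (RNeasy) of F4/80-positive liver cells from 3 WT and 3 Lpcat3KOMac mice was made into polyA libraries (NEBNext Ultra), 1 per mouse. The authors deposited raw counts of reads per gene, without normalization, for 49315 Ensembl genes in each library, with the exonic length of each gene. The submitters' processing notes name Trimmomatic 0.36, STAR 2.5.2b, featureCounts from Subread 1.5.2 and GRCm38. The strand setting, the annotation release and the handling of reads matching several places or several genes are not given in the sources used here. Symbols were matched for 48970 genes, and 44858 genes had the same start and end in GENCODE M21. Among the members, the positions of *Ctsb*, *Ctsl* and *Ctsf* differed from that release, and those of the deposited tables were printed.

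Groups and replicate numbers came from the sample labels. Counts were compared with edgeR 4.0.16 (R 4.3.3) by the quasi-likelihood F test with robust dispersion, TMM scaling and the default expression filter (minimum count 10), fitting genotype alone. Benjamini-Hochberg adjustment ran over 16134 genes, with calls made at an adjusted p under 0.05. Single members were also tested by a two-sided exact permutation test of the difference in mean log2 TMM CPM. Levels between genes were compared as TMM CPM per kilobase of exon. All pairs of libraries differed by more than sampling noise (chi-square per degree of freedom at least 41.0). The script was tested on simulated data with 200 changed genes, where all genes had the same dispersion. That test does not show what the fit can find in these libraries. As alternatives, other tests (DESeq2 1.42.0 and limma-voom with limma 3.58.1), other scaling (DESeq2's size factors in edgeR, or total counts alone), other filters (none, or a minimum of 10 counts in each of the libraries), plain in place of robust dispersion, a replicate block, a hepatocyte covariate and fits without 1 or 2 libraries were run. The named genes were all cathepsins, their overlapping genes, *Lpcat3* and *Lyz2*, and from each related list the gene with the highest level per kilobase and up to 3 with the smallest unadjusted p under 0.05. Other genes were named after their values were seen. The members and lists were chosen with earlier results of these data known. Exonic lengths and overlaps came from the exons in the deposited tables, principal transcripts from GENCODE M21 and promoters from RefSeq. The active-site stretch of 1 member is not reported here, and the other measurements of the study were not analysed.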

Additional observations from a re-analysis of the deposited data

How the results depend on the processing

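In edgeR and limma-voom, 0 genes were called under every alternative, and DESeq2 called 12 genes, none of them a cathepsin. At an unadjusted p under 0.05, edgeR had 426 genes, limma-voom 403 and DESeq2 481, but the count in edgeR was 1494 with the hepatocyte covariate, 2028 without WT mouse 1, 1767 without WT mouse 1 and Lpcat3KOMac mouse 2, and 179 without Lpcat3KOMac mouse 1, so the share of all genes set beside the members moves with these libraries. Each member's log2 fold change was recomputed under 16 alternatives, and 145 of 160 values kept the direction and an adjusted p above 0.05, including all those of *Ctsa*, *Ctsd*, *Ctsf*, *Ctsh*, *Ctsk* and *Ctss*. The other 15 belonged to members near 0, and the cause was not tested. With total counts alone, *Ctsb* was at 0.055, *Ctsc* at 0.075 and *Ctsl* at 0.023, and 5 members were higher and 5 lower. *Ctsc* was at 0.0046 with DESeq2's size factors in edgeR and with DESeq2, and at 0.061 with the hepatocyte covariate. Leaving out 1 mouse in turn gave -0.11 to 0.049 for *Ctsb*, -0.13 to 0.089 for *Ctsc*, -0.16 to 0.014 for *Ctsl* and -0.21 to 0.016 for *Ctsz*, and -1485 to 421 TMM CPM for the difference of the summed level. The direction of *Ctsz* turned only without Lpcat3KOMac mouse 2. For *Ctsf* the leave-one-out range was -0.29 to -0.21, and for *Ctss* -0.28 to -0.15. The unadjusted p of *Ctsf* was under 0.05 in 11 of its 16 alternatives, and that of *Ctss* in 1 (DESeq2, unadjusted p = 0.0419, not called after adjustment).

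Deviations from the group means correlated at -0.39, -0.70 and 0.41 between mice of the same number, with a mean of -0.23 beside 0.15 for different numbers. The correlation was 0.72 for WT mouse 1 with Lpcat3KOMac mouse 2, the libraries with the most hepatocyte transcript. With 3 mice per group, these correlations cannot decide whether mice were paired. With the replicate block, 0 genes were called, 138 genes and 0 cathepsins had an unadjusted edgeR p under 0.05, and *Ctsf* was at -0.26 (unadjusted p = 0.0773, adjusted p above 0.05). *Ctsk* had the lowest counts, 31 to 186 per library. With 3 mice per genotype the exact permutation test cannot go below 0.1.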
